A study of Caenorhabditis elegans with 6 samples.

Results

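The *oac* genes of *C. elegans* encode transmembrane proteins of the acyltransferase-3 family, which are predicted to move acyl groups onto other molecules. The genes were chosen by name, as every *oac* gene with a number together with *nrf-6* and *ndg-4*, with 10 or more reads in at least 3 of the 6 libraries. 58 such genes were listed among the 46778 gene identifiers, and 40 of them passed the read minimum. These 40 are called the members here, and they consist of 38 *oac* genes, *nrf-6* and *ndg-4*. Of the 18 others, 3 had no read in any library, and none had more than 14 reads in a library.

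RNA was sequenced from whole, age-synchronized young adult animals kept at 20 °C, in 3 libraries of *vhl-1(ok161)* mutants and 3 libraries of wild type N2 animals. The *ok161* allele is a null mutation of *vhl-1*, and each genotype is represented by a single strain. The genotype field of the mutants is spelled "vhlk-1", and the sample titles give *vhl-1*. Values are counts of single-end 50 bp reads per gene, scaled to CPM (reads of the gene in each 1e6 reads of the library) with TMM factors, and a fold change is that of *vhl-1* mutants over wild type animals.

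Proteins of this family span the membrane many times. *nrf-6* and *ndg-4*, the best known members, were found in screens for worms whose nose muscles resist fluoxetine, and their loss also gives pale eggs with little yolk. The related gene *rhy-1*, which carries no *oac* name, encodes a regulator of the hypoxia-inducible factor HIF-1. RHY-1 keeps HIF-1 activity low by way of CYSL-1 and EGL-9, and *rhy-1* is itself transcribed under HIF-1. VHL-1 marks HIF-1 for degradation, so that HIF-1 is stable in *vhl-1* mutants. *oac-54* lies next to *rhy-1*. The numbered *oac* genes are named for their predicted enzyme class, and no further role is given for any of them here.

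The total of reads on genes lay between 60286645 and 82910026 in *vhl-1* mutants and between 52462303 and 78205244 in wild type animals. The targeted gene *vhl-1* had 7, 3 and 1 reads in the libraries of *vhl-1* mutants, against 501, 442 and 373 in those of wild type animals. Summed markers of 4 oocyte genes differed widely within a genotype, from 146 to 594 CPM in *vhl-1* mutants and from 207 to 671 CPM in wild type animals, and all 3 early embryonic genes examined together stayed at or below 0.190 CPM in *vhl-1* mutants and 0.224 CPM in wild type animals. Of 34 tested markers of intestine, hypodermis, muscle, pharynx, neurons, germ line, oocytes and sperm, 0 passed with edgeR or with DESeq2, and 0 had an unadjusted edgeR p under 0.05. The embryonic genes had too few reads to be tested. In RNA from whole animals, fewer cells of a type and less RNA per cell cannot be told apart.

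Of the 40 members, all of which were tested, 1 passed an adjusted p-value of 0.05 in edgeR's quasi-likelihood test, *oac-54*, which rose in *vhl-1* mutants. Over all 16596 genes tested, 1.25% passed, with 0.874% higher and 0.374% lower in *vhl-1* mutants. Among the members, 1 call makes 2.50%, which is 1 gene and is not read as a property of the family. The median log2 fold change of the members was 0.10, beside 0.01 for all genes tested. 24 members had a log2 fold change above 0 and 16 below 0. For 20 members it lay between -0.5 and 0.5.

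*oac-54* (WBGene00012323) rose 11.9-fold in *vhl-1* mutants. It had 10.8, 9.87 and 11.9 CPM in *vhl-1* mutants, against 0.98, 1.1 and 0.642 CPM in wild type animals, from 913, 803 and 733 reads against 77, 69 and 32 reads. The genotypes were far apart, with the lowest mutant library at 9.87 CPM and the highest wild type library at 1.1 CPM. Its log2 fold change was 3.57 (standard error 0.24, 95% interval 3.00 to 4.13, edgeR adjusted p = 0.00132). The exact permutation test of the mean CPM gave p = 0.1 (two-sided), the smallest p that 3 against 3 libraries allow. Per kilobase of exon, *oac-54* stood at 6.92 ± 0.647 CPM in *vhl-1* mutants and 0.579 ± 0.152 CPM in wild type animals (SD, n = 3 each). This placed it as number 9 of the 40 members in *vhl-1* mutants and as number 29 in wild type animals.

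**Figure D1:**
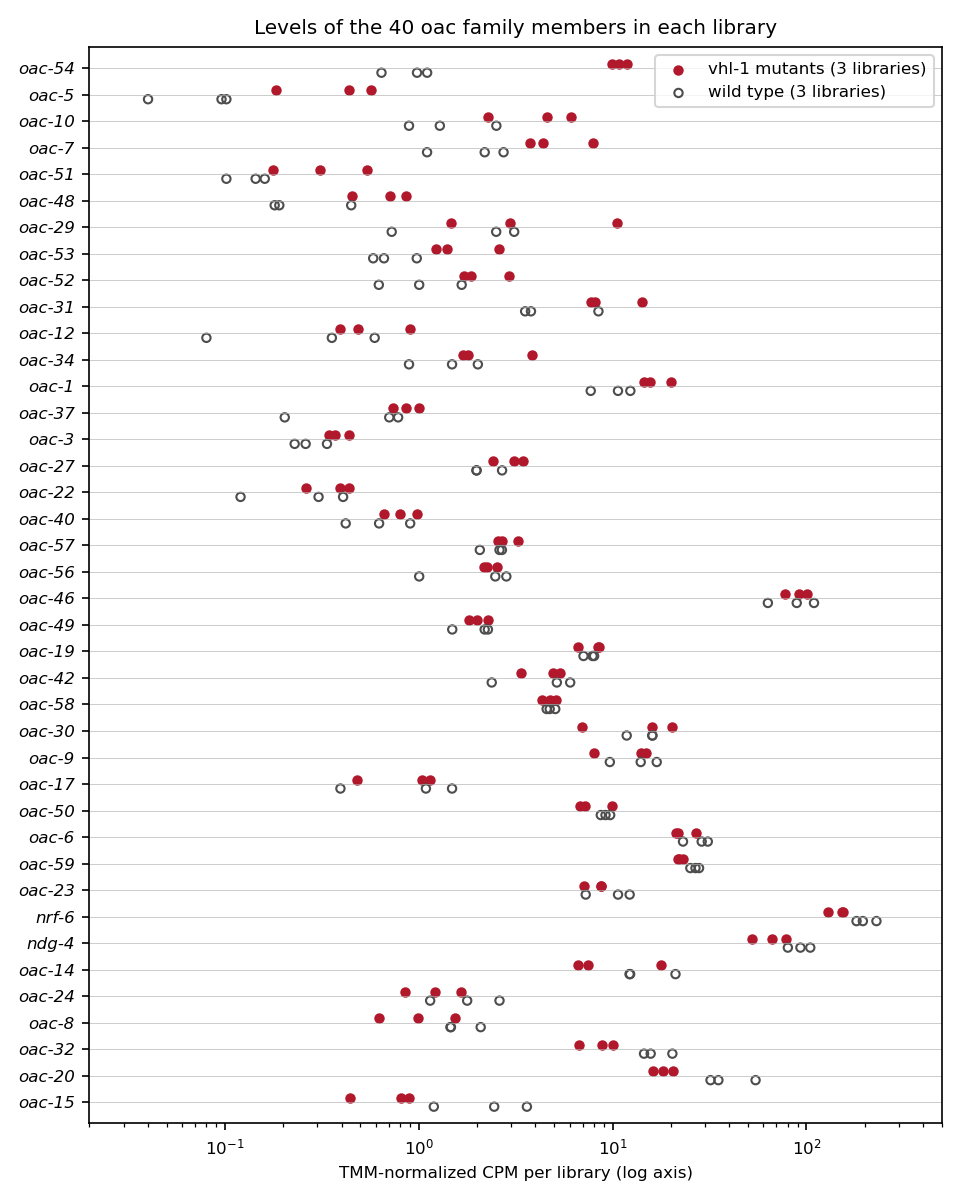
Level of each of the 40 members in each library, as TMM-normalized CPM on a log axis, with filled points for the 3 libraries of *vhl-1* mutants above open points for the 3 wild type libraries, and members ordered by log2 fold change. For *oac-54*, at the top, the mutant libraries lie between 9.87 and 11.9 CPM and the wild type libraries between 0.642 and 1.10 CPM.

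*oac-54* lies on chromosome II of WBcel235 from 9158111 to 9159984, on the plus strand. *rhy-1* (WBGene00012324) follows it on the same strand, from 9161379 to 9163448, with 1394 bases between them and no shared exon base. *rhy-1* had 186, 188 and 255 CPM in *vhl-1* mutants, against 21.8, 25.6 and 32.3 CPM in wild type animals. It rose with a log2 fold change of 2.98 (standard error 0.20, 95% interval 2.50 to 3.46, edgeR adjusted p = 0.00145). All 3 mutant libraries lay above all 3 wild type libraries for both genes, and the intervals of their log2 fold changes overlapped. Per kilobase, *rhy-1* stood at 126 ± 23.7 CPM in *vhl-1* mutants and 15.9 ± 3.18 CPM in wild type animals (SD, n = 3 each), far above *oac-54* in either genotype.

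The genes share their build. *oac-54* encodes 477 amino acids in 4 coding exons of 105, 873, 206 and 247 bases, and *rhy-1* encodes 502 amino acids in 4 coding exons of 180, 873, 206 and 247 bases. The run of 873, 206 and 247 bases occurred in 2 of the 19985 protein-coding genes of the annotation, which are these genes. *oac-54* was the shortest protein among the members, whose median was 686.5 amino acids and whose longest, NRF-6, had 822. It also had the fewest coding exons, 4 against a median of 11. With no other member did *oac-54* share more than 1 coding exon length in a row.

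Reads of such a pair could have been divided between the genes in counting, and how multiply mapped reads were counted is not given in the sources used here. The share of *oac-54* in the reads of both genes was 5.51% (Wilson 95% interval 5.17 to 5.86%), 4.98% (4.66 to 5.33%) and 4.45% (4.15 to 4.78%) in the libraries of *vhl-1* mutants. In wild type animals it was 4.30% (3.46 to 5.34%), 4.13% (3.28 to 5.20%) and 1.95% (1.39 to 2.74%). The share was lowest in the third wild type library, with 32 reads of *oac-54*. It was higher in each mutant library than in each wild type library. The interval of every mutant library overlapped those of the first and second wild type libraries, and the difference was not tested. These intervals cover counting error only, and replicate libraries differed by more than that. Whether reads were divided between the genes was not tested.

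**Figure D2:**
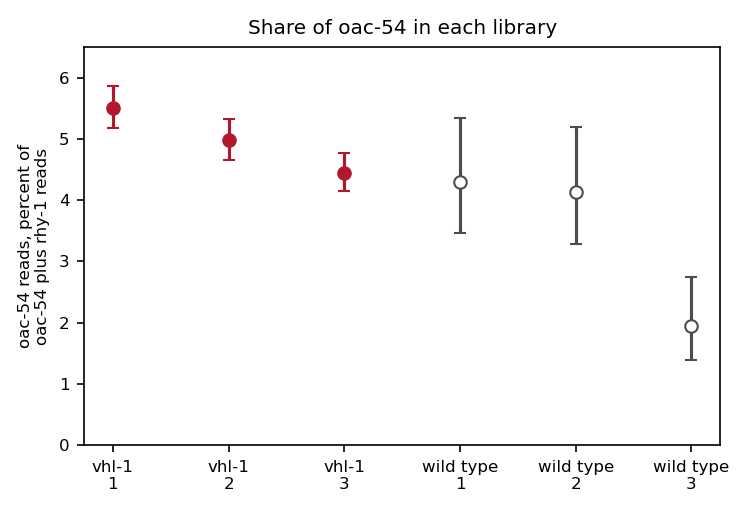
Reads of *oac-54* as a percentage of the reads of *oac-54* and *rhy-1* together, in each of the 3 libraries of *vhl-1* mutants (filled) and the 3 wild type libraries (open), with Wilson 95% intervals as bars. The third wild type library, at 1.95%, lies below the other 5, which range from 4.13% to 5.51%.

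Beyond *oac-54*, the gene on its other side is *col-78*, a cuticle collagen gene that ends 3774 bases before *oac-54* starts, on the same strand. *col-78* had 29, 47 and 25 reads in *vhl-1* mutants, against 0 reads in each wild type library. It was at least 7.35-fold higher in *vhl-1* mutants, taken against 3 reads in the shallowest wild type library (edgeR adjusted p = 0.0301). That call was lost whenever any 1 library was left out, with an adjusted p between 0.0522 and 0.17. Next to *col-78*, *W07A12.4* had 7.62, 8.81 and 7.99 CPM in *vhl-1* mutants, against 3.23, 5.11 and 6.72 CPM in wild type animals. Its libraries did not overlap, but its log2 fold change of 0.70 did not pass (edgeR adjusted p = 0.461).

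Downstream of *rhy-1*, none of the 5 tested genes within 10 kb passed with edgeR or DESeq2. *W07A12.8*, which overlaps 82 exon bases of *rhy-1* on the opposite strand, had 0.783, 0.504 and 0.162 CPM in *vhl-1* mutants, against 1.18, 0.672 and 0.582 CPM in wild type animals. Its log2 fold change was -0.74 (edgeR adjusted p = 0.876). *T23G7.3*, *T23G7.2*, *dpl-1* and *sec-5* had log2 fold changes of 0.16, 0.08, -0.01 and -0.03. The libraries of *T23G7.3* did not overlap, with 98.3, 118 and 98.8 CPM in *vhl-1* mutants, against 96.3, 97.0 and 88.6 CPM in wild type animals. The genes of this stretch that passed were thus *col-78*, *oac-54* and *rhy-1*, which follow one another on the plus strand.

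**Figure D3:**
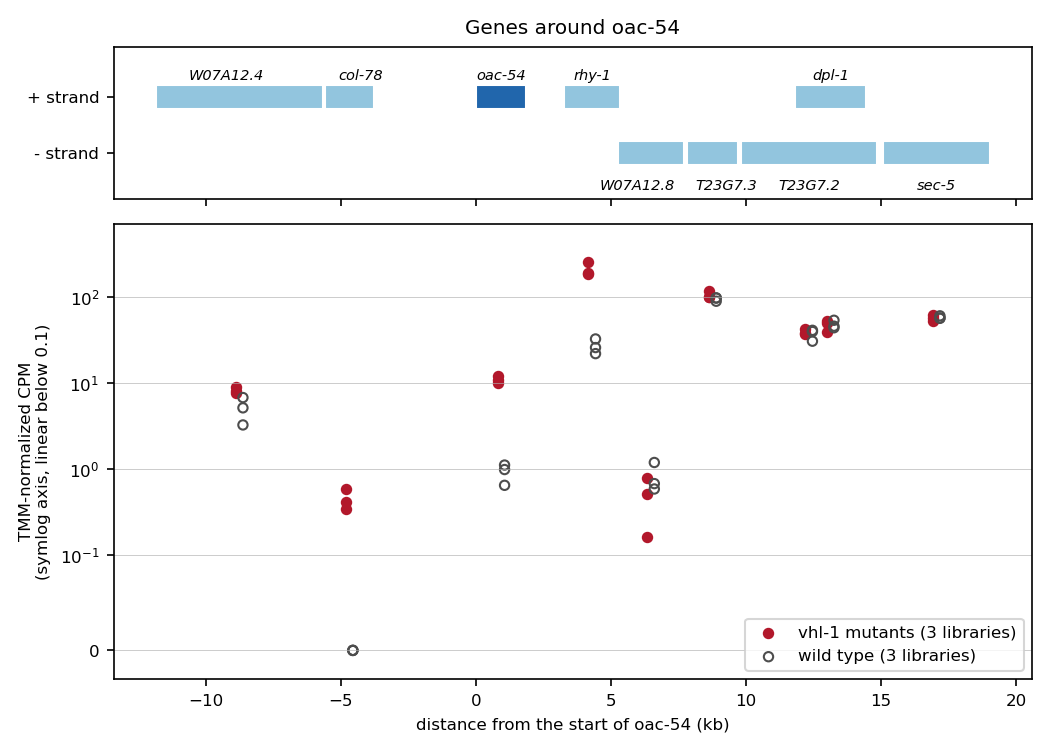
Genes within 10 kb of the *oac-54* and *rhy-1* pair that were tested, drawn to scale by their distance in kb from the start of *oac-54* (upper panel), and their TMM-normalized CPM in each library on a symlog axis (lower panel), with filled points for the 3 libraries of *vhl-1* mutants and open points slightly to the right for the 3 wild type libraries. The genotypes are far apart at *col-78*, *oac-54* and *rhy-1* and close together from *T23G7.3* onward.

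*nrf-6* and *ndg-4* were the members with lower values at the highest levels. *nrf-6* had 154, 129 and 152 CPM in *vhl-1* mutants, against 229, 181 and 195 CPM in wild type animals. Its log2 fold change was -0.48 (95% interval -0.77 to -0.19, edgeR adjusted p = 0.173), so it did not pass, although every mutant library was below every wild type library. *ndg-4* had 78.4, 52.4 and 66.1 CPM in *vhl-1* mutants, against 105, 80.1 and 93.1 CPM in wild type animals. The libraries did not overlap here either, and the log2 fold change of -0.50 did not pass (95% interval -0.90 to -0.09, edgeR adjusted p = 0.371). Across the 8 alternatives that kept all libraries, the adjusted p ran from 0.0148 to 0.245 for *nrf-6* and from 0.00921 to 0.447 for *ndg-4*, and both passed in 1 of them, DESeq2 with the replicate number as a block.

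The fluoxetine-resistance gene *nrf-5*, a lipid-binding protein whose loss gives the same worm phenotype, had 56.9, 54.7 and 54.8 CPM in *vhl-1* mutants, against 69.1, 57.7 and 57.7 CPM in wild type animals. Its log2 fold change was -0.15 (edgeR adjusted p = 0.818). The yolk protein genes *vit-1* to *vit-6* had log2 fold changes between -2.22 and -1.31, and that of the yolk receptor gene *rme-2* was -0.14. With edgeR, 0 of these 8 genes passed and 3 had an unadjusted p under 0.05, while DESeq2 called 1 of them, *vit-1* (log2 fold change -1.77, DESeq2 adjusted p = 0.0244), as lower. In 4 of the 8, *vit-1*, *vit-3*, *vit-4* and *nrf-5*, every mutant library was below every wild type library, as in 7.48% of all genes tested. The summed CPM of the 8 ran from 907 to 6642 in *vhl-1* mutants and from 5017 to 17655 in wild type animals. The highest of these sums was that of the first wild type library, which also had the highest CPM of *nrf-6*, *ndg-4* and *nrf-5*. Without that library, the log2 fold change was -0.38 for *nrf-6* and -0.40 for *ndg-4* (edgeR adjusted p = 0.247 and 0.520). Over all 6 fits with 1 library left out, it ran from -0.56 to -0.38 for *nrf-6* (edgeR adjusted p 0.247 to 0.496). For *ndg-4* it ran from -0.64 to -0.36 (edgeR adjusted p 0.252 to 0.828).

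*oac-20*, *oac-32* and *oac-15* also had lower values in every mutant library. *oac-20* had 16.2, 20.6 and 18.2 CPM in *vhl-1* mutants, against 54.6, 35.1 and 32 CPM in wild type animals, and its log2 fold change of -1.15 came nearest to the threshold among the lower members (95% interval -1.68 to -0.62, edgeR adjusted p = 0.0822). *oac-32* had 6.72, 10.1 and 8.81 CPM in *vhl-1* mutants, against 20.3, 14.5 and 15.7 CPM in wild type animals, with a log2 fold change of -0.98 (95% interval -1.48 to -0.49, edgeR adjusted p = 0.105). *oac-15* had 0.806, 0.442 and 0.893 CPM in *vhl-1* mutants, against 1.2, 2.45 and 3.61 CPM in wild type animals. Its log2 fold change of -1.76 was the lowest among the members (95% interval -2.88 to -0.63, edgeR adjusted p = 0.202). These genes passed with DESeq2, whose adjusted p was 0.000306 for *oac-20*, 0.00103 for *oac-32* and 0.00673 for *oac-15*. Across the 8 alternatives that kept all libraries, the adjusted p ran from 0.000146 to 0.0896 for *oac-20*, from 0.00103 to 0.124 for *oac-32* and from 0.00376 to 0.215 for *oac-15*. With 1 library left out it reached 0.348 for *oac-20*, 0.398 for *oac-32* and 0.522 for *oac-15*. *oac-59*, at 22.3 ± 0.582 CPM in *vhl-1* mutants and 26.6 ± 1.38 CPM in wild type animals (SD, n = 3 each), was the sixth member whose mutant libraries were all lower, with a log2 fold difference of -0.26 (edgeR adjusted p = 0.426).

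Among the members, *oac-8* and *oac-24* had the next lowest log2 fold changes, -0.67 and -0.57 (edgeR adjusted p = 0.725 and 0.831). Their genotypes overlapped. *oac-8* had 1.53, 0.627 and 0.99 CPM in *vhl-1* mutants, against 2.09, 1.46 and 1.46 CPM in wild type animals, and *oac-24* had 1.65, 0.848 and 1.22 CPM in *vhl-1* mutants, against 1.14, 1.78 and 2.61 CPM in wild type animals.

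On the higher side, *oac-5* had the next largest log2 fold change after *oac-54*, and *oac-7* was also higher in every mutant library. *oac-5* had 48, 15 and 27 reads in *vhl-1* mutants, against 8, 6 and 2 reads in wild type animals, a log2 fold change of 2.25 (95% interval 0.92 to 3.58, edgeR adjusted p = 0.163). It met the read minimum only through the mutant libraries, as did *oac-51*, so a higher value was built into their choice. *oac-7* had 3.76, 7.96 and 4.37 CPM in *vhl-1* mutants, against 2.19, 2.74 and 1.1 CPM in wild type animals, a log2 fold change of 1.41 (95% interval 0.40 to 2.42, edgeR adjusted p = 0.271). DESeq2 gave an adjusted p of 0.0395 for *oac-5* and 0.0226 for *oac-7*. Over the alternatives that kept all libraries, the adjusted p lay between 0.0395 and 0.166 for *oac-5* and between 0.000146 and 0.285 for *oac-7*.

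*oac-10* had 6.09, 2.27 and 4.59 CPM in *vhl-1* mutants, against 0.891, 2.51 and 1.28 CPM in wild type animals. The third mutant library and the first exceeded all wild type libraries, but the second did not, and the log2 fold change of 1.47 did not pass (edgeR adjusted p = 0.363). *oac-1* had 20.0, 15.5 and 14.5 CPM in *vhl-1* mutants, against 7.71, 12.3 and 10.7 CPM in wild type animals, with no overlap and 0.70 as its log2 fold change (edgeR adjusted p = 0.294). *oac-53*, *oac-52*, *oac-51*, *oac-48* and *oac-3* were also higher in every mutant library. Their log2 fold changes were 1.23, 0.97, 1.35, 1.30 and 0.47, at mean levels per kilobase of exon over the 6 libraries between 0.0993 and 0.736 CPM, and their edgeR adjusted p lay between 0.287 and 0.783.

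Counted together, the libraries did not overlap in 15 of the 40 members, 9 higher and 6 lower in *vhl-1* mutants. Among the 9 are *oac-5* and *oac-51*, which met the read minimum only through the mutant libraries. The 15 make 37.5% of the members, against 14.4% of all genes tested, of which 6.97% were higher and 7.48% lower. An unadjusted p under 0.05 was reached by the same number of members, 15, against 9.38% of all genes tested. With DESeq2, 6 members passed an adjusted p of 0.05, or 15%, against 3.4% of the genes it gave an adjusted p for (1.76% higher, 1.64% lower). Of the members, these were *oac-54*, *oac-5* and *oac-7* as higher and *oac-15*, *oac-20* and *oac-32* as lower. The limit on *oac-5* holds for this count too. The members share their choice by name, and neighbors among them may share reads, so these shares are given as a description.

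The members *oac-12*, *oac-34*, *oac-37*, *oac-27*, *oac-22*, *oac-40*, *oac-56*, *oac-49*, *oac-19*, *oac-42*, *oac-17*, *oac-50* and *oac-23* overlapped between the genotypes, and none passed with edgeR or DESeq2. Their log2 fold changes lay between -0.30 (*oac-23*) and 0.77 (*oac-12*).

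**Figure D4:**
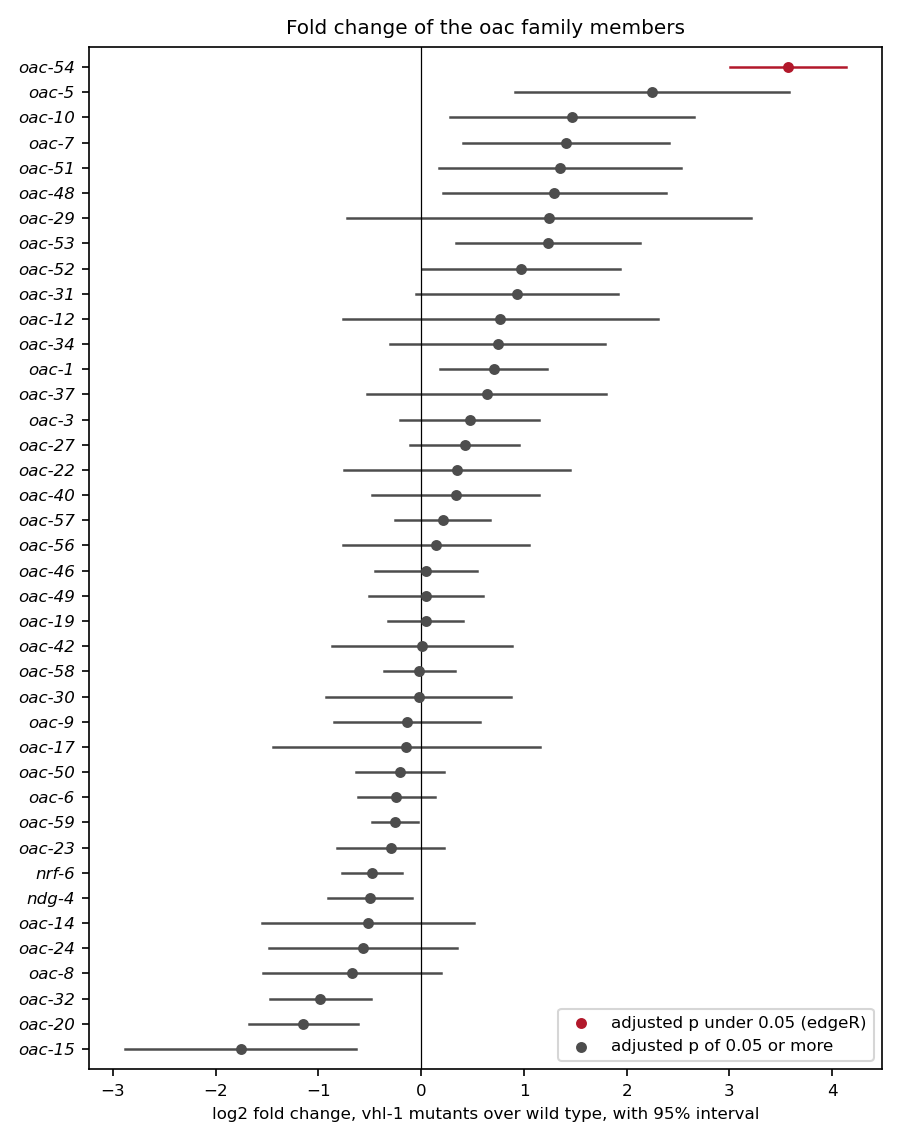
Log2 fold change of each member, *vhl-1* mutants over wild type animals, with its 95% interval from edgeR's quasi-likelihood fit and members in order of size. The interval holds 0 for 25 of the 40 members, and *oac-54* alone, at 3.57, passed the adjusted p of 0.05.

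Per kilobase of exon and averaged over the 6 libraries, *nrf-6* stood highest at 67.4 CPM, followed by *oac-46* at 36.8, *ndg-4* at 35.9, *oac-20* at 12.9 and *oac-6* at 11.5 CPM. With edgeR none of these 5 passed, and with DESeq2 *oac-20* did, as given above. 16 members were under 1 CPM per kilobase, and the median of the 40 was 1.5. *oac-46* had 77.7, 101 and 91.4 CPM in *vhl-1* mutants, against 63.2, 89.1 and 109 CPM in wild type animals, and its log2 fold change was 0.05 (95% interval -0.45 to 0.54, edgeR adjusted p = 1.00). The order of *oac-46* and *ndg-4* turned between the genotypes, with 37.4 ± 4.87 CPM per kilobase for *oac-46* and 29.8 ± 5.90 for *ndg-4* in *vhl-1* mutants, and 36.2 ± 9.59 for *oac-46* and 42.0 ± 5.55 for *ndg-4* in wild type animals (SD, n = 3 each). Within either genotype the ranges of mean ± SD overlapped. *oac-6* had 21.8, 21.2 and 27 CPM in *vhl-1* mutants, against 31, 23.1 and 28.8 CPM in wild type animals, with a log2 fold change of -0.24 (95% interval -0.61 to 0.13). The genotypes overlapped for both *oac-46* and *oac-6*.

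**Figure D5:**
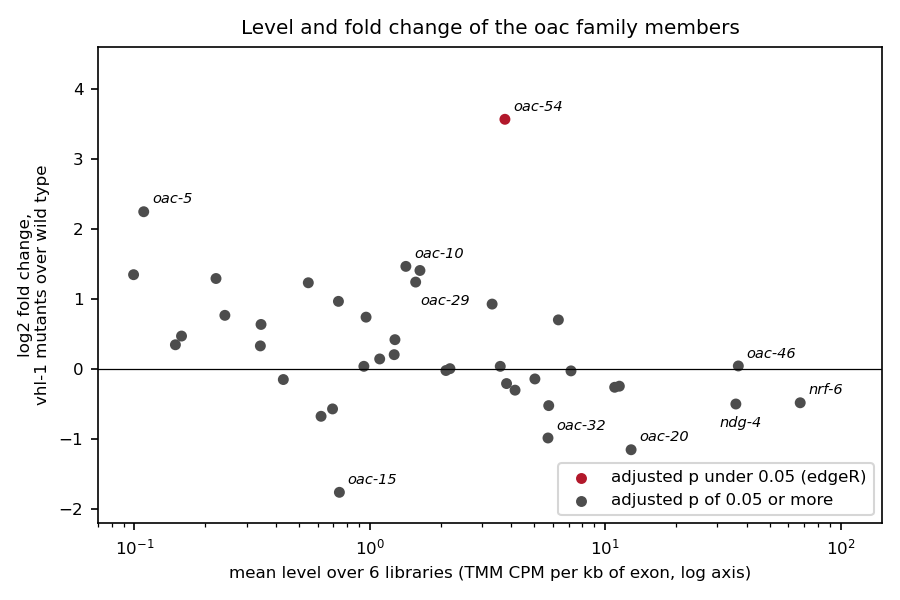
Mean level of each member over the 6 libraries, in TMM-normalized CPM per kilobase of exon on a log axis, against its log2 fold change, *vhl-1* mutants over wild type animals. *oac-54* stands alone at 3.57, and the 3 members at the highest levels, *nrf-6*, *oac-46* and *ndg-4*, lie between -0.50 and 0.05.

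For members that did not pass, the intervals set what could have been missed. For 15 members the 95% interval stayed within -1 and 1 on the log2 scale, the narrowest being that of *oac-59*. For 13 others it held 0 and also reached a doubling or a halving. The widest was that of *oac-29*, whose second mutant library stood apart. *oac-29* had 1.46, 10.5 and 2.94 CPM in *vhl-1* mutants, against 0.725, 3.11 and 2.51 CPM in wild type animals. Its log2 fold change of 1.24 (edgeR adjusted p = 0.821) was 0.06 without that library. That second mutant library also had the lowest sum of oocyte markers, 146 CPM, the lowest sum of yolk-related genes, 907 CPM, and the lowest *oac-30*, *oac-9* and *oac-10* of the mutants. Of all 6 libraries, it was the highest for 9 members and the lowest for 9. The first wild type library was the highest for 8 members and the lowest for 14. *oac-30* had 20.3, 6.96 and 15.9 CPM in *vhl-1* mutants, against 11.8, 16 and 16 CPM in wild type animals. *oac-14* had 6.62, 17.8 and 7.43 CPM in *vhl-1* mutants, against 12.3, 21.1 and 12.2 CPM in wild type animals, with the second library highest in each genotype. The part of the oocyte markers in these values was not tested.

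29 of the 58 listed genes fell into 11 groups with at most 10 kb between neighbors, and 16 members lay in these groups. In 5 of the groups 2 or more genes were members, and the log2 fold changes were of unlike sign in 4 of these and of like sign in 1. The sign was counted however small the change, and these counts were not tested. The like pair was *oac-51* and *oac-52* on chromosome IV, with 1.35 and 0.97, both higher in every mutant library. *oac-51*, like *oac-5* in the row named below, met the read minimum only through the mutant libraries. On chromosome V, *oac-31* (1538354 to 1541886) and *oac-32* (1542442 to 1545783) follow each other on the minus strand. *oac-31* had 8.13, 7.73 and 14.1 CPM in *vhl-1* mutants, against 3.79, 3.54 and 8.45 CPM in wild type animals, a log2 fold change of 0.93 that did not pass (edgeR adjusted p = 0.59), while that of *oac-32* was -0.98. The CPM ratio of *oac-31* to *oac-32* was 1.21, 0.766 and 1.6 in *vhl-1* mutants, against 0.186, 0.244 and 0.538 in wild type animals. The pair was singled out after its values were seen, and its ratio was not tested. In the row of *oac-5*, *oac-6* and *oac-7* (chromosome V, 16292709 to 16314775, plus strand), the outer genes had log2 fold changes of 2.25 and 1.41 and the middle gene -0.24. *oac-59*, *oac-57* and *oac-58* on chromosome IV (12293233 to 12311697) had -0.26, 0.21 and -0.02, and *oac-23* and *oac-22* on the same chromosome had -0.30 and 0.35.

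Members of like gene structure were compared in the same way. 27 members shared a run of at least 3 coding exons of equal length with another member, in 51 pairs, and in 27 of these pairs the log2 fold changes differed in sign. *oac-5* and *oac-6* shared 10 of their 11 coding exon lengths in a row, with log2 fold changes of 2.25 and -0.24. *oac-5* met the read minimum only through the mutant libraries, so its higher value was built into its choice. *oac-20*, on the same chromosome from 15978714 to 15981779, shared 7 in a row with *oac-5*, and had -1.15. *oac-8* and *oac-10* shared 4 in a row, with -0.67 and 1.47, and *oac-1* and *oac-15* shared 4, at 0.70 and -1.76. Other pairs were of like sign. *oac-6* and *oac-20* shared 6 in a row, with -0.24 and -1.15, and *oac-12* and *oac-48* shared 4, with 0.77 and 1.30. These values are a description. With edgeR none of these genes passed, and with DESeq2 *oac-5*, *oac-15* and *oac-20* did.

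Of the acyltransferases with no *oac* name, *rhy-1* rose as given above. *bus-1*, which is needed for a bacterial pathogen to adhere to the worm's cuticle, had 4.99, 15.1 and 11 CPM in *vhl-1* mutants, against 2.4, 10.3 and 5.98 CPM in wild type animals, with a log2 fold difference of 0.73 (edgeR adjusted p = 0.892) and overlapping libraries. In the HIF-1 pathway, 3 of 10 genes rose with edgeR and 1, *vhl-1*, fell. With DESeq2, 5 rose and 1 fell. The genes that rose with edgeR were *rhy-1*, *egl-9*, which encodes the prolyl hydroxylase of HIF-1 (log2 fold change 1.99, edgeR adjusted p = 0.00307), and *aha-1*, the partner of HIF-1, with 0.91 (edgeR adjusted p = 0.0245). *cysl-2* and *cysl-1*, of the cysteine synthase family, were called higher by DESeq2 only. The log2 fold change of *cysl-2* was 2.04 (edgeR adjusted p = 0.0508, DESeq2 adjusted p = 2.08e-07) and that of *cysl-1* 0.56 (edgeR adjusted p = 0.0845, DESeq2 adjusted p = 0.00973), and the genotypes overlapped in neither. Of 12 HIF-1 targets taken from an earlier analysis of these libraries, 11 rose with edgeR and 12 with DESeq2, with a median log2 fold change of 2.76. They were chosen on these samples and are no independent evidence. The log2 fold change of *oac-54* lay above that median and between those of *nhr-57* (3.51) and *fmo-2* (4.56). Of 17 larval cuticle and molting genes, 0 passed with edgeR or DESeq2 and 0 had an unadjusted edgeR p under 0.05, and their median log2 fold change was -0.10.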

How the data were processed

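RNA of 3 libraries per genotype was read from one end over 50 bp. The reads were trimmed with Trim Galore 0.4.3.1, aligned with STAR 2.6.0b and counted per gene with featureCounts 1.6.3 by the authors, who deposited raw counts for each library, genes without reads included. Build, annotation release, strand setting and treatment of multiply mapped reads are not given in the sources used here. A blank row in each holds 0 reads. Symbols, positions and exon lengths came from Ensembl release 115 of WBcel235, which held 46603 of the 46778 identifiers. Overlapping exons covered at most 6.03% of a member.

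Differences between genotypes were fitted on the counts with edgeR 4.0.16 under R 4.3.3 (filterByExpr, TMM, quasi-likelihood test on genotype, Benjamini-Hochberg over 16596 genes, threshold 0.05), checked on simulated data. Standard errors follow from the F statistic. CPM per kilobase uses the union of exons. Wilson intervals are at 95%. Alternatives were DESeq2 1.42.0, other scalings and filters, a threshold of 0.01, a replicate term and each library left out. The study also used DESeq2, given as version 2.2.12.40.3. Members and lists were chosen with earlier results of these data known. Members were named when past the threshold, without overlap of the genotypes, among the 5 highest levels or the 5 largest fold changes in either direction, and *oac-54*, *nrf-6*, *ndg-4*, *rhy-1* and *bus-1* always. Other members, exon structures and the genes around *oac-54* were chosen after values were seen. Replicates are labelled biological, and the chi-square per gene between them was at least 45.8, where sampling noise gives about 1.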

Additional observations from a re-analysis of the deposited data

How the results depend on the processing

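*oac-54* and *rhy-1* stayed higher in *vhl-1* mutants and past the threshold under every alternative run, with log2 fold changes of 3.38 to 3.72 and 2.82 to 3.14 over the 6 fits with 1 library left out. The log2 ratios of their mean CPM then ran from 3.38 to 3.74 and from 2.82 to 3.15.

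The number of members past the threshold, 1, was 6 with DESeq2 (3 higher, 3 lower, beside 3.4% of all genes). Without a filter on low counts it was 2 (*oac-20* as 1 lower, beside 1.06% of all genes). It stayed at 1 in each fit with 1 library left out, with 1 higher and 0 lower. The count over all genes, 207, was 650 with DESeq2, 65 at the threshold of 0.01 and 49 to 161 with 1 library left out (49 without the second wild type library, 50 without the third *vhl-1* library, 75, 94 and 114 without the third wild type, first *vhl-1* and second *vhl-1* library). The median log2 fold change of the members, 0.10, ran from 0.021 to 0.257 with 1 library left out, and was 0.257 without the third wild type library. The log2 fold change of *oac-46*, from -0.14 to 0.24 with 1 library left out, was below 0 without the second *vhl-1* library (-0.04) and without the first wild type library.

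Whether the replicate numbers pair the libraries is not settled. Across genes, the correlation of deviations from the genotype means was 0.59, 0.51 and -0.02 for libraries 1, 2 and 3. The first and second *vhl-1* libraries correlated best with the wild type library of the same number. The third *vhl-1* library correlated best with the first wild type library. With the replicate block, edgeR gave 354 genes, 2.13% of all genes in that fit, and 2 members (2 higher, *oac-31* added). DESeq2 with the block gave 909 genes, 5.14% of those with an adjusted p, and 12 of the 40 members. These were 6 higher (*oac-7*, *oac-10*, *oac-31*, *oac-52*, *oac-53* and *oac-54*) and 6 lower (*oac-14*, *oac-15*, *oac-20*, *oac-32*, *nrf-6* and *ndg-4*). The cause of these differences was not tested. A read minimum of 5 or 20 would give 45 or 38 members. A motif search in promoters and a comparison of proteins were not run, since no sequence was used here. Members at the lowest levels, such as *oac-5* with 2 to 48 reads, are limited by depth.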
